A study of Schizosaccharomyces pombe with 6 samples.

Results

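A group of 6 genes of Schizosaccharomyces pombe that act in meiosis were followed in vegetative cells: bqt1, bqt2, rec11, moa1, sgo1 and mes1, taken by gene name from a table of 7001 features, of which 5166 were protein-coding. They act in the telomere bouquet, in meiotic cohesion, in the attachment and protection of centromeres, and in the passage between the meiotic divisions. RNA came from whole cells of 3 strains, with 2 libraries of each: red1Δ, mug174Δ and the parental WT strain in which both genes were replaced singly. The genotype labels give the first strain as a red1 mutation and the second as a mug174 deletion. All strains were untreated and grew in rich YES medium with 3% glucose at 32 °C. The series calls the 2 libraries biological replicates and says no more of how separate the cultures were, and the p-values cover the spread between libraries alone.

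Red1 of fission yeast is a nuclear scaffold of the MTREC complex, which hands RNAs to the exosome (it is not the Red1 protein of budding yeast). Vegetative fission yeast transcribes some meiotic genes, and the RNA-binding protein Mmi1 recognizes their mRNAs through repeated short motifs in a region named the DSR and passes them on for degradation with Red1. Mug174 is the protein that the study identifies as the fission yeast Coilin, the scaffold of Cajal bodies. In meiotic prophase Bqt1 and Bqt2 bridge the telomere protein Rap1 to the spindle pole body protein Sad1, which gathers the telomeres into the bouquet. Rec11 is a meiotic cohesin subunit that works with the kleisin Rec8 along the chromosome arms. Moa1 makes sister kinetochores attach to the same pole in meiosis I, Sgo1 (shugoshin) shields centromeric Rec8 from separase in that division, and Mes1 inhibits the anaphase-promoting complex (APC/C) so that cells enter meiosis II.

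The core of the motif bound by Mmi1 is the hexamer TNAAAC, written here as DNA. Both strands of the spliced coding sequences were searched for it in 5143 protein-coding genes (RefSeq sequence, ASM294v3), and 78.1% of these genes held at least 1 on the coding strand. The median gene had 2, or 1.52 per kb, against 1.49 per kb on the opposite strand. The stretches below are shown because the members differ widely in this feature. They run 5′ to 3′ on the coding strand, the hexamers are in capitals, and positions count from the first base of the start codon. The moa1 stretch covers bases 115 to 392 and the bqt1 stretch bases 73 to 369, and these hold all of the hexamers of the 2 genes. For rec11 the 2 copies of the form TTAAAC are shown (bases 1662 to 1687 and 2251 to 2276), and for sgo1 the single copies of TTAAAC and TCAAAC (bases 184 to 209 and 215 to 240). For bqt2 (bases 20 to 45) and mes1 (bases 124 to 149) the only copy is shown.
moa1: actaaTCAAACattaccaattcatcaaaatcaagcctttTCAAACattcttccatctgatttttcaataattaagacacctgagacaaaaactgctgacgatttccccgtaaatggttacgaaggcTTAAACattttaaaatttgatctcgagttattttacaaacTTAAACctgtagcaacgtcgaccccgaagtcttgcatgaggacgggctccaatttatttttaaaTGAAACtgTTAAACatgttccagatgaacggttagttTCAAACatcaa
bqt1: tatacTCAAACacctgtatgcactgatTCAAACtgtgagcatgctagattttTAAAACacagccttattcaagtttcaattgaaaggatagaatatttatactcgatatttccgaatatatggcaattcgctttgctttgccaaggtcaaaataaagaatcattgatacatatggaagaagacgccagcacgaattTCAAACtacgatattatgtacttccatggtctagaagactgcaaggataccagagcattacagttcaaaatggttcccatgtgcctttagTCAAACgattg
rec11, first: taacagtgtcTTAAACccctgtatac
rec11, second: gattggaacaTTAAACtgtcagaaaa
sgo1, first: agttatttggTTAAACttgaagctcg
sgo1, second: gcaatcaatcTCAAACtgaggacttg
bqt2: ccttttttgaTGAAACcgtaccttct
mes1: attgaattggTGAAACcttcacaaac

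Hexamers were densest in moa1 and bqt1, and all 6 members lay above the median density. The moa1 coding sequence had 7, or 13.5 per kb, which ranked 3 among the 5143 genes. It had 3 copies of TCAAAC, 3 of TTAAAC and 1 of TGAAAC, and 2 hexamers lay on the opposite strand. The bqt1 coding sequence had 5, or 12.5 per kb, which ranked 9, with 4 of the form TCAAAC. Only 0.0583% of genes were as dense as moa1 and 0.175% as dense as bqt1. The sgo1 coding sequence had 5 hexamers (5.21 per kb, a density reached by 2.70% of genes). The long rec11 sequence had 8 hexamers on its coding strand and 5 on the other, and its density of 2.89 per kb was reached by 15.6% of genes. A single hexamer gave 3.27 per kb in mes1, reached by 11.1% of genes, and 2.80 per kb in bqt2, reached by 17.1%. A match to these letters is a description of the sequence and not evidence of binding.

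**Figure D1:**
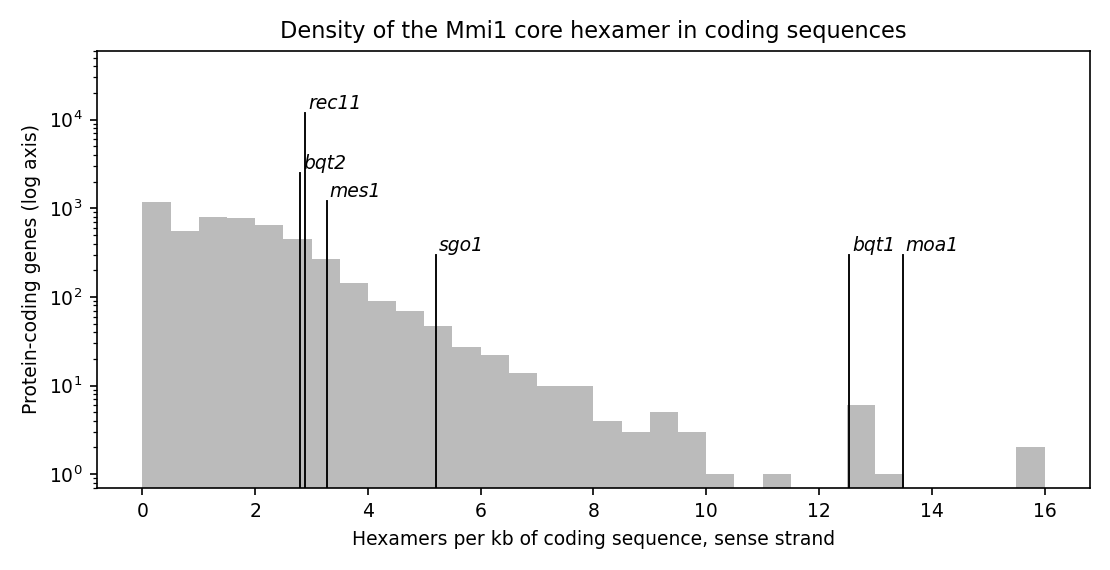
Distribution of TNAAAC hexamers per kb of spliced coding sequence (x axis) over 5143 protein-coding genes (y axis, number of genes, log scale), with vertical lines at the 6 members. The lines of moa1 (13.5 per kb) and bqt1 (12.5 per kb) stand in the far right tail, sgo1 (5.21 per kb) in the upper flank, and the other 3 members between 2.80 and 3.27 per kb.

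Values are RPKM, the reads of a feature scaled to its length in kb and to the size of its library. Libraries held between 16565908 and 18627129 reads over the listed features, and 1 read in a feature of 1 kb was worth between 0.0537 and 0.0604 RPKM. The deletions matched their labels: red1 had 1 and 2 reads in the red1Δ libraries, against 98.2 and 82.7 RPKM in mug174Δ and 62.7 and 57.1 RPKM in WT. The mug174 gene had 28.3 and 29.1 RPKM in red1Δ, 1 and 0 reads in mug174Δ, and 21.5 and 20.1 RPKM in WT. Ribosomal RNA (49 features) took 2.87% and 2.97% of reads in red1Δ, 4.71% and 3.85% in mug174Δ, and 6.25% and 5.93% in WT. This share falls in the order in which the members' levels rise, and its part in the results was not tested. In bulk RNA, more cells that express a gene and more RNA in each cell cannot be told apart.

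All 6 members were called higher in red1Δ than in WT cells, a comparison in which 48.4% of all tested features were called higher. In mug174Δ 5 of them were called higher than in WT cells, against 19.8% of all tested features. The largest folds in red1Δ were those of moa1 and rec11, and the smallest was that of mes1. With median ratio scaling mes1 lost its calls in both mutants. The summed level of the 6 genes was 299.7 and 332 RPKM in red1Δ, 195 and 197 RPKM in mug174Δ, and 112 and 120 RPKM in WT. Differences below are on the scale log2(RPKM + 0.5), from limma with 1 mean per strain over all 6 libraries and Benjamini-Hochberg adjustment over the 5949 features that reached 1 RPKM in at least 2 libraries, and a call is an adjusted p under 0.05. All 6 members passed this filter, and moa1 would not have passed it in the mug174Δ and WT libraries alone.

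**Figure D2:**
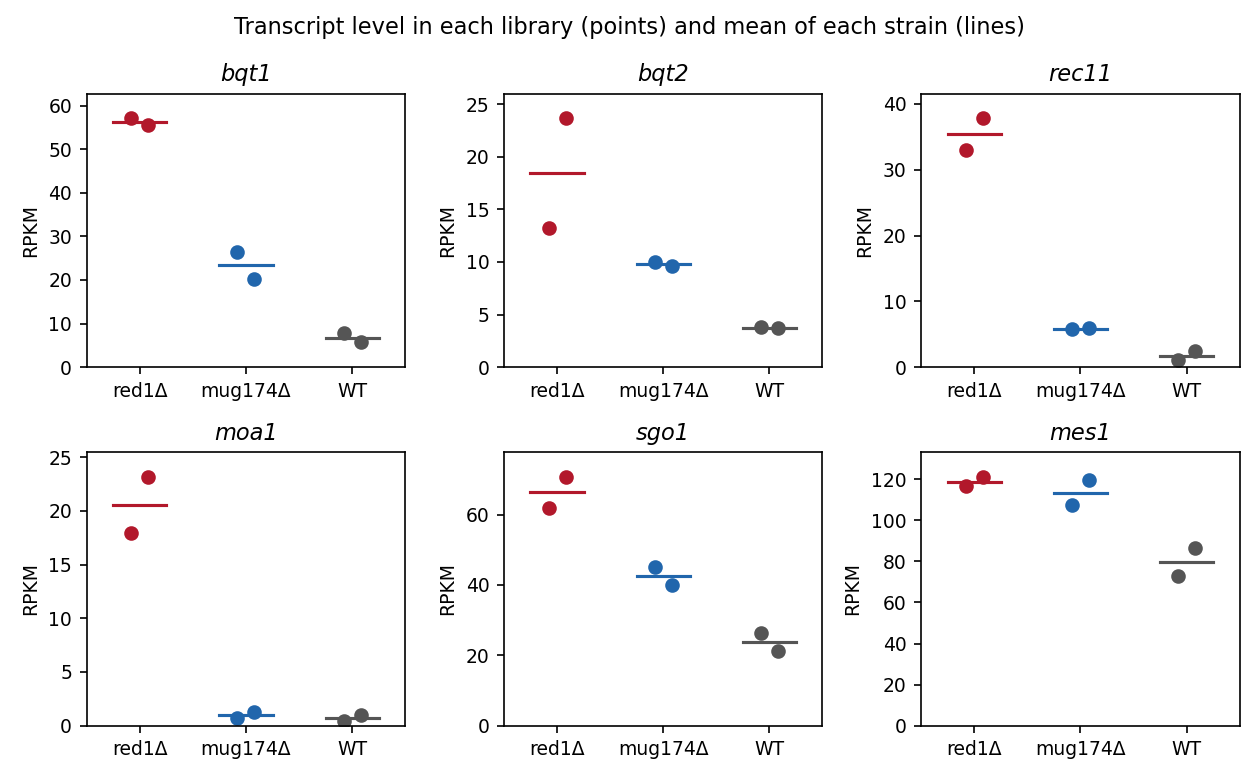
RPKM of each member (y axis, linear, from 0, its own scale in each panel) in the 2 libraries of red1Δ, mug174Δ and WT (x axis), with points for libraries and lines for strain means. For moa1 and rec11 the red1Δ libraries (17.9 to 37.8 RPKM) stand far above all others, whereas for mes1 the red1Δ and mug174Δ libraries overlap between 107 and 121 RPKM.

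Of the bouquet pair, bqt1 (SPAC6G9.13c) lies on chromosome I at 3272150-3272699 on the minus strand of the deposited annotation, with 1 intron and 399 coding bases. It had 57.1 and 55.5 RPKM in red1Δ, 26.3 and 20.3 RPKM in mug174Δ, and 7.80 and 5.78 RPKM in WT, from 40 to 394 reads. The 3 strains were fully separated. The level was 56.3 ± 1.09 RPKM in red1Δ, 23.3 ± 4.25 RPKM in mug174Δ and 6.79 ± 1.43 RPKM in WT (SD, n = 2 each), so that the means were 8.29-fold and 3.43-fold the WT mean. The log2 difference from WT was 2.98 (SE 0.18, limma adjusted p = 4.5e-04) in red1Δ and 1.71 (SE 0.18, limma adjusted p = 0.0064) in mug174Δ. Between the mutants, red1Δ was higher by 1.26 (SE 0.18, limma adjusted p = 0.012).

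The partner gene bqt2 (SPAC1002.06c, chromosome I, 1807270-1807781, minus strand, 2 introns, 357 coding bases) was expressed at a lower level. It had 13.3 and 23.7 RPKM in red1Δ, 9.98 and 9.62 RPKM in mug174Δ, and 3.82 and 3.71 RPKM in WT, from 23 to 146 reads. No strains overlapped, but the 2 red1Δ libraries were far apart, with 82 and 146 reads. Means were 18.5 ± 7.34 RPKM in red1Δ, 9.80 ± 0.249 RPKM in mug174Δ and 3.77 ± 0.0784 RPKM in WT (SD, n = 2 each), which is 4.90-fold and 2.60-fold the WT mean. The log2 difference from WT was 2.10 (SE 0.27, limma adjusted p = 0.0029) in red1Δ and 1.27 (SE 0.27, limma adjusted p = 0.023) in mug174Δ. The difference of red1Δ from mug174Δ was 0.82 (95% interval 0.18 to 1.47) and did not pass the threshold (limma adjusted p = 0.077). It was 1.23 without red1Δ replicate 1 and 0.42 without red1Δ replicate 2. Among the 9 alternatives that did not leave out single libraries, it passed in 0.

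The cohesin gene rec11 (SPCC4E9.01c, chromosome III, 1223686-1226925, minus strand, 8 introns, 2772 coding bases) was low in WT and many-fold higher in red1Δ. It had 33.0 and 37.8 RPKM in red1Δ, 5.81 and 5.89 RPKM in mug174Δ, and 1.08 and 2.39 RPKM in WT. The ranges did not overlap, and the WT libraries differed from each other, with 55 and 115 reads. Mean levels were 35.4 ± 3.37 RPKM in red1Δ, 5.85 ± 0.0517 RPKM in mug174Δ and 1.74 ± 0.925 RPKM in WT (SD, n = 2 each), or 20.4-fold and 3.37-fold the WT mean. The log2 difference from WT was 4.07 (SE 0.29, limma adjusted p = 7.0e-04) in red1Δ and 1.57 (SE 0.29, limma adjusted p = 0.017) in mug174Δ. The 2 mutants differed by 2.497 (SE 0.29, limma adjusted p = 0.0061). An antisense RNA, rec11-antisense-1 (1224631-1225817, plus strand), overlaps rec11 and was listed at 0 reads in all 6 libraries. No source used here says whether strand was used in the counting, so reads of the pair cannot be told apart.

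The monopolar attachment gene moa1 (SPAC15E1.07c, chromosome I, 3728516-3729034, minus strand, no intron, 519 coding bases) was the member that separated the 2 mutants most. It had 17.9 and 23.2 RPKM in red1Δ, 0.698 and 1.24 RPKM in mug174Δ, and 0.421 and 0.9996 RPKM in WT. The mug174Δ and WT libraries overlapped and held only 6 and 12 reads in mug174Δ and 4 and 9 reads in WT, against 161 and 208 reads in red1Δ. Means were 20.6 ± 3.72 RPKM in red1Δ, 0.970 ± 0.384 RPKM in mug174Δ and 0.710 ± 0.409 RPKM in WT (SD, n = 2 each). The red1Δ mean was 28.9-fold the WT mean, and the log2 difference of 4.15 (SE 0.33, limma adjusted p = 9.3e-04) understates this ratio because of the added 0.5 RPKM. In mug174Δ the difference from WT was 0.30 (95% interval -0.52 to 1.11, limma adjusted p = 0.52), so that a change within that interval was not detectable at this depth. Between red1Δ and mug174Δ it was 3.85 (SE 0.33, limma adjusted p = 0.0029).

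The shugoshin gene sgo1 (SPBP35G2.03c, chromosome II, 967746-968767, minus strand, 1 intron, 960 coding bases) was already well expressed in WT. It had 61.9 and 70.7 RPKM in red1Δ, 45.2 and 40.04 RPKM in mug174Δ, and 26.2 and 21.1 RPKM in WT, from 352 to 1174 reads. The strains did not overlap. Means were 66.3 ± 6.22 RPKM in red1Δ, 42.6 ± 3.66 RPKM in mug174Δ and 23.7 ± 3.60 RPKM in WT (SD, n = 2 each), or 2.80-fold and 1.80-fold the WT mean. The log2 difference from WT was 1.47 (SE 0.14, limma adjusted p = 0.0015) in red1Δ and 0.84 (SE 0.14, limma adjusted p = 0.013) in mug174Δ. The mutants differed by 0.63 (SE 0.14, limma adjusted p = 0.032), a call that was lost with median ratio scaling, without the filter on low values and without any 1 of red1Δ replicate 2, mug174Δ replicate 1 and mug174Δ replicate 2.

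The APC/C inhibitor gene mes1 (SPAC5D6.08c, chromosome I, 1499185-1499565, plus strand, 1 intron, 306 coding bases) had the highest level and the smallest changes. It had 116 and 121 RPKM in red1Δ, 107 and 120 RPKM in mug174Δ, and 72.8 and 86.3 RPKM in WT, from 408 to 682 reads. Both mutants lay above WT and overlapped each other. Means were 119 ± 3.29 RPKM in red1Δ, 113 ± 8.72 RPKM in mug174Δ and 79.5 ± 9.52 RPKM in WT (SD, n = 2 each). The log2 difference from WT was 0.58 (SE 0.11, limma adjusted p = 0.0078) in red1Δ and 0.51 (SE 0.11, limma adjusted p = 0.024) in mug174Δ, and the mutants differed by 0.07 (95% interval -0.20 to 0.33, limma adjusted p = 0.67). With median ratio scaling neither difference from WT passed (0.22 in red1Δ, adjusted p = 0.179, and adjusted p = 0.0867 in mug174Δ). The table counts reads per gene and does not separate spliced from unspliced mes1 RNA.

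The order of levels, which RPKM allows since it is per length, was mes1, sgo1, bqt1, bqt2, rec11 and moa1 in mug174Δ and in WT. In red1Δ rec11 and moa1 moved up, and the order was mes1, sgo1, bqt1, rec11, moa1 and bqt2. The moa1 (17.9 and 23.2 RPKM) and bqt2 (13.3 and 23.7 RPKM) libraries overlapped there, so these neighbours did not differ beyond their spread. In WT the closest neighbours were rec11 (1.08 and 2.39 RPKM) and moa1 (0.421 and 0.9996 RPKM), whose ranges nearly met.

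In red1Δ against WT, 6 of 6 members were called higher, where 48.4% of the 5949 tested features were called higher and 7.33% lower. The median log2 difference was 2.54 over the members and 0.35 over all features, so that relative to the median feature the members were higher by between 0.23 (mes1) and 3.801 (moa1). Among 4751 tested protein-coding genes, moa1 ranked 14 by log2 difference, rec11 15, bqt1 29, bqt2 57, sgo1 133 and mes1 1073. The moa1 gene entered these counts, the median and the ranks only because its red1Δ libraries passed the filter on low values. Without that filter 6 members were called as well. All 6 calls held when any single library was left out, with adjusted p up to 0.044 for mes1. Median ratio scaling moved the median of all features to 0.00 and the split of calls to 1075 higher and 1132 lower, against 2880 and 436 without it, and 5 of 6 members were then called higher.

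In mug174Δ against WT, 5 of 6 members were called higher and 0 lower (all but moa1), where 19.8% of features were called higher and 5.53% lower. The median log2 difference was 1.06 over the members and 0.18 over all features, and relative to the median feature the called members were higher by between 0.33 (mes1) and 1.53 (bqt1). By log2 difference bqt1 ranked 34, rec11 39, bqt2 61, sgo1 192, mes1 676 and moa1 1532 among the protein-coding genes. Median ratio scaling gave 4 members (mes1 was lost) and a split of 581 higher and 601 lower features, against 1179 and 329 without it. Without the filter on low values only bqt1 and sgo1 were called, and with voom on whole reads bqt2 was lost. These calls rested on all 4 libraries: 0 members were called without mug174Δ replicate 1, 1 (bqt1) without mug174Δ replicate 2 or WT replicate 1, and 2 (bqt1 and rec11) without WT replicate 2. The features called in all then numbered between 27 and 94, and 5 members had an unadjusted limma p under 0.05 in each case.

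In red1Δ against mug174Δ, bqt1, rec11, moa1 and sgo1 were called higher and none lower, where 16.1% of features were called higher and 3.28% lower. At an unadjusted limma p under 0.05 there were 5 members, beside 2261 of the 5949 tested features in either direction. No member was lower at either threshold. The median log2 difference was 1.04 over the members and 0.18 over all features. The ranks were 10 for moa1, 18 for rec11 and 62 for bqt1. Only moa1 was called without mug174Δ replicate 2, bqt1 and moa1 without mug174Δ replicate 1, and bqt1, rec11 and moa1 without red1Δ replicate 2. Median ratio scaling gave a split of 439 higher and 336 lower features, against 958 and 195. The comparisons of red1Δ and of mug174Δ with WT share the WT libraries.

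**Figure D3:**
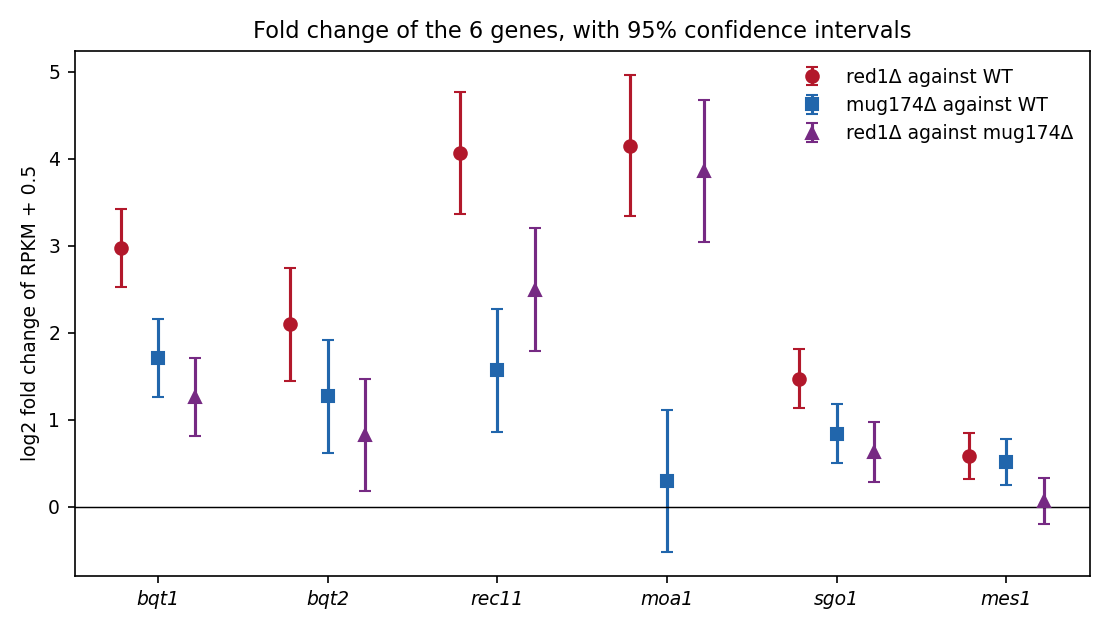
Log2 difference of RPKM + 0.5 (y axis) of each member (x axis) in the 3 comparisons, red1Δ against WT, mug174Δ against WT and red1Δ against mug174Δ, with 95% intervals from the limma fit as bars. For moa1 the interval in mug174Δ against WT includes 0 (-0.52 to 1.11) and that in red1Δ against WT does not (3.34 to 4.97), whereas for mes1 both are close to 0.5.

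The patterns over the 6 libraries can be compared by the root mean square difference of log2(RPKM + 0.5), each gene centred on its own mean. Among the members bqt2 and sgo1 were most alike (0.33), then sgo1 and mes1 (0.41) and bqt1 and bqt2 (0.46), whereas moa1 and mes1 were least alike (1.75). Over 4750 other protein-coding genes the 3 nearest to moa1 were ssm4 (0.25), mei4 (0.29) and mcp7 (0.41). The nearest to rec11 were mug45 (0.17), mek1 (0.25) and rec25 (0.28), and to bqt1 they were SPBC13G1.16 (0.11), rec10 (0.11) and mug37 (0.25). For bqt2 these genes were SPAC4F10.17 (0.13), pbi2 (0.13) and SPCC70.04c (0.16), for sgo1 pdc201 (0.09), rho5 (0.10) and SPAC15E1.02c (0.10), and for mes1 pcc1 (0.05), SPCC663.18 (0.06) and gcs2 (0.06).

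Other genes of the bouquet and of nuclear movement in meiotic prophase gave 8 of 10 tested genes higher in red1Δ than in WT and 3 of 10 in mug174Δ, with 0 lower in either. The median log2 difference was 0.56 and 0.28, against 0.35 and 0.18 over all tested features. Of all tested features 48.4% were called higher in red1Δ and 19.8% in mug174Δ. With median ratio scaling the counts were 4 higher and 1 lower (bqt4) in red1Δ, and 1 higher in mug174Δ. The dynactin gene ssm4 had 134 and 141 RPKM in red1Δ, 7.47 and 7.44 RPKM in mug174Δ, and 5.78 and 6.79 RPKM in WT, a log2 difference of 4.35 in red1Δ (limma adjusted p = 4.8e-05) and 0.23 in mug174Δ (limma adjusted p = 0.18). Its mutant libraries, like those of moa1, were high in red1Δ alone. The dynein heavy chain gene dhc1 differed from WT by 1.47 in red1Δ and 0.56 in mug174Δ (limma adjusted p = 0.0016 and 0.037). The genes of the KASH proteins at the spindle pole body, kms1 and kms2, differed by 1.02 and 0.72 in red1Δ (limma adjusted p = 0.0011 and 0.0032) and by 0.80 and 0.33 in mug174Δ (limma adjusted p = 0.0064 and 0.054). Of the genes of the proteins that Bqt1 and Bqt2 bridge, rap1 was called higher in red1Δ (0.56, limma adjusted p = 0.012) and sad1 was not (0.38, limma adjusted p = 0.064). The telomere protein gene taz1 was also called higher in red1Δ (0.55, limma adjusted p = 0.0087). With median ratio scaling the calls of rap1 and taz1 in red1Δ and of dhc1 in mug174Δ were lost (adjusted p = 0.170, 0.175 and 0.089).

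Of the cohesin genes other than rec11, 6 of 9 were higher and 1 lower (ssl3, log2 difference -0.41, limma adjusted p = 0.011) in red1Δ than in WT, and 1 of 9 was higher in mug174Δ. Shares called higher over all tested features were 48.4% and 19.8%. Medians were 0.50 and 0.23, against 0.35 and 0.18 over all tested features, and median ratio scaling left 3 higher and 1 lower in red1Δ and 0 in mug174Δ. The meiotic kleisin gene rec8, whose product pairs with Rec11, had 249 and 267 RPKM in red1Δ, 2.65 and 4.17 RPKM in mug174Δ, and 2.04 and 4.65 RPKM in WT. It differed from WT by 6.16 in red1Δ (limma adjusted p = 3.7e-04) and by 0.08 in mug174Δ (SE 0.35, limma adjusted p = 0.87). The rec11 gene differed from WT in both mutants. The mitotic kleisin gene rad21 differed by 0.71 in red1Δ (limma adjusted p = 0.0040) and -0.05 in mug174Δ (limma adjusted p = 0.75), and the cohesin loader gene mis4 by 0.94 and 0.49 (limma adjusted p = 0.0023 and 0.025). The release factor gene wpl1 differed by 0.50 in red1Δ (limma adjusted p = 0.0083) and was lost with median ratio scaling.

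For shugoshin partners, monopolin and the inner centromere, 10 of 12 genes were higher in red1Δ than in WT and 0 lower, and in mug174Δ 4 were higher and 1 lower. Medians were 0.52 and 0.29, against 0.35 and 0.18 over all tested features, of which 48.4% and 19.8% were called higher. With median ratio scaling there were 4 higher and 2 lower in red1Δ, and 0 higher and 1 lower (swi6) in mug174Δ. The lower genes in red1Δ were swi6 and the kinetochore protein gene cnp3 (-0.54, limma adjusted p = 0.0050). The largest difference in red1Δ was that of the Aurora kinase gene ark1 (1.18, limma adjusted p = 0.0079, and 0.51 in mug174Δ, limma adjusted p = 0.14), and the Polo kinase gene plo1 differed by 0.81 in red1Δ (limma adjusted p = 0.0074). The largest in mug174Δ was that of the INCENP gene pic1 (0.57, limma adjusted p = 0.028, and 0.88 in red1Δ, limma adjusted p = 0.0041). The borealin gene nbl1 differed by 0.68 in red1Δ and 0.38 in mug174Δ (limma adjusted p = 0.0040 and 0.038), and the PP2A regulatory subunit gene par1, whose product acts with shugoshin, by 0.46 and 0.30 (limma adjusted p = 0.0049 and 0.033). The par1 call in red1Δ was lost with median ratio scaling (0.10, adjusted p = 0.34). That scaling also removed the mug174Δ calls of pic1, nbl1 and par1 (limma adjusted p = 0.063, 0.149 and 0.286). The heterochromatin protein gene swi6 fell by 0.40 in mug174Δ (limma adjusted p = 0.016) and differed by 0.05 in red1Δ (limma adjusted p = 0.55). Median ratio scaling gave swi6 a log2 difference of -0.31 in red1Δ, past the threshold (adjusted p = 0.031).

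Among genes of the meiotic divisions and the APC/C, 11 of 13 were higher in red1Δ than in WT and 6 of 13 in mug174Δ, with 0 lower. Medians were 0.71 and 0.32, against 0.35 and 0.18 over all tested features, of which 48.4% and 19.8% were called higher. With median ratio scaling there were 7 higher and 1 lower (cdc13) in red1Δ and 3 higher in mug174Δ. The APC/C activator gene mfr1, whose product Mes1 inhibits, had 61.5 and 75.1 RPKM in red1Δ, 53.2 and 53.9 RPKM in mug174Δ, and 26.1 and 19.5 RPKM in WT, a log2 difference of 1.57 and 1.23 (limma adjusted p = 0.0019 and 0.0094). The transcription factor gene mei4 differed by 4.58 in red1Δ (limma adjusted p = 6.0e-05) and 0.73 in mug174Δ (limma adjusted p = 0.017). The meiotic cyclin gene crs1 differed by 4.59 and 1.14 (limma adjusted p = 1.0e-04 and 0.0098), and spo5, which encodes an RNA-binding protein of meiosis II, by 6.53 in red1Δ (limma adjusted p = 2.1e-04) and 0.87 in mug174Δ (limma adjusted p = 0.098).

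**Figure D4:**
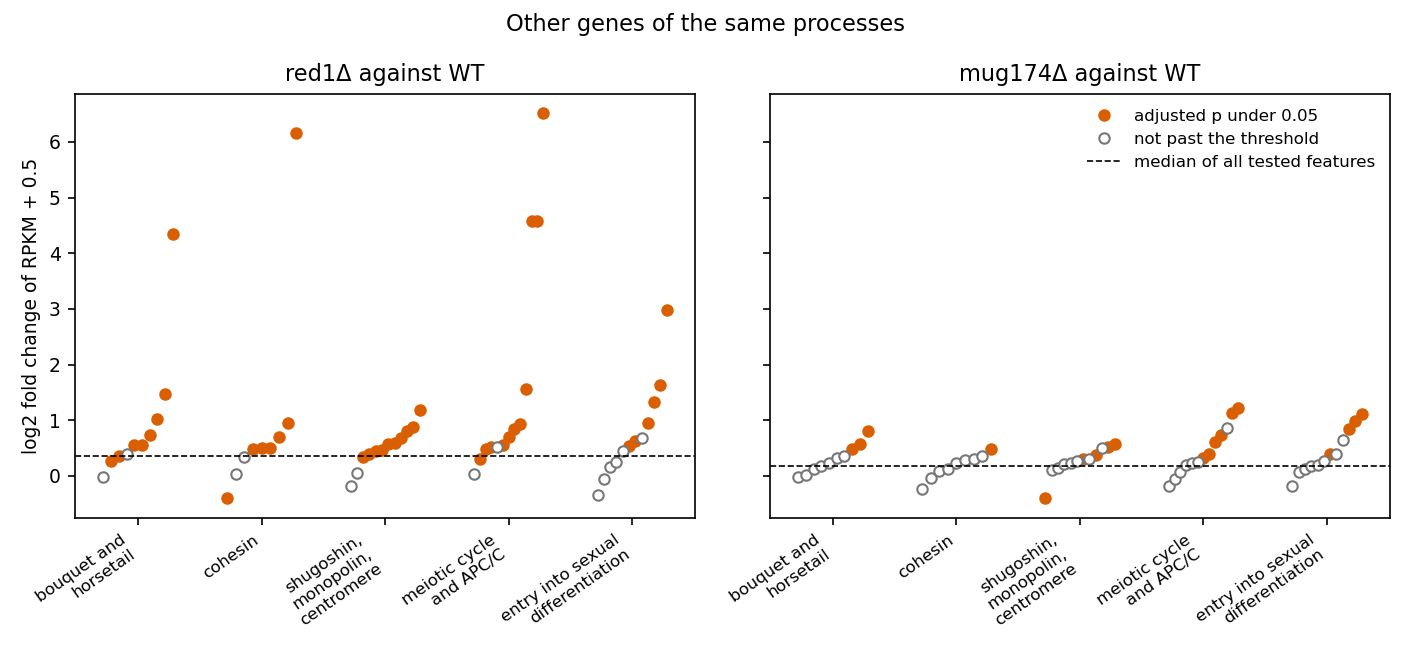
Log2 difference of RPKM + 0.5 (y axis) of the other genes of 5 lists (x axis), in red1Δ against WT (left) and mug174Δ against WT (right), with filled points for limma adjusted p under 0.05 and a dashed line at the median of all tested features. In red1Δ some genes stand well above the rest of their lists, such as rec8 (6.16) and spo5 (6.53), whereas in mug174Δ no gene passes 1.23. In the shugoshin, monopolin and inner centromere list the largest difference in red1Δ is 1.18 (ark1).

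The vegetative label was checked with 12 tested genes of entry into sexual differentiation. Of these, 6 were higher in red1Δ and 4 in mug174Δ than in WT, with 0 lower (median 0.58 and 0.33, and 3 and 3 genes with median ratio scaling). Among all tested features 48.4% were called higher in red1Δ and 19.8% in mug174Δ (median 0.35 and 0.18). The count in red1Δ was thus near the share over all features. The master regulator gene ste11 had 9.81 and 20.8 RPKM in red1Δ, 20.0 and 28.1 RPKM in mug174Δ, and 14.7 and 15.2 RPKM in WT. For mei2, whose product starts meiosis, the values were 3.23 and 6.78 RPKM in red1Δ, 6.14 and 6.89 RPKM in mug174Δ, and 6.69 and 5.65 RPKM in WT. Neither ste11 nor mei2 was called in either mutant. The gene mei3, whose product is an inducer of meiosis, had 1.94 and 4.66 RPKM in red1Δ, 0.675 and 0.360 RPKM in mug174Δ, and 0.977 and 0.387 RPKM in WT. It was called higher in red1Δ (log2 difference 1.63, limma adjusted p = 0.029, and 0.054 with median ratio scaling). However, mei3 passed the filter on low values only through the red1Δ libraries, where it is high, which limits this call. The other called genes included rep1, an activator of premeiotic transcription (2.98 in red1Δ and 1.12 in mug174Δ, limma adjusted p = 6.2e-04 and 0.016), the pheromone receptor gene mam2 (0.95 and 0.98, limma adjusted p = 0.0025 and 0.0074), the fusion formin gene fus1 (1.33 and 0.83, limma adjusted p = 0.0023 and 0.017) and the MAP kinase gene spk1 (0.62 and 0.39, limma adjusted p = 0.0062 and 0.046). Both calls of spk1 were lost with median ratio scaling (adjusted p = 0.058 and 0.127). The part of cells in sexual differentiation in the members' levels was not tested. Across the 5 lists 7 genes were listed at 0 in every library (num1, mcp6, jnm1, psm3, sgo2, rem1 and ste6), and psm3 encodes an essential cohesin subunit, so a value of 0 in this table cannot be read as absent RNA.

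Of the 12 protein-coding genes next to the members, 4 were called higher and 0 lower in red1Δ against WT (median log2 difference 0.08), and 1 higher and 3 lower in mug174Δ against WT (median -0.01). Over all tested features 48.4% were called higher and 7.33% lower in red1Δ (median 0.35), and 19.8% and 5.53% in mug174Δ (median 0.18). With median ratio scaling the counts were 2 higher (pxa1 and jmj2) and 4 lower in red1Δ and 1 higher (jmj2) and 5 lower in mug174Δ. The red1Δ calls of cfr1 and vps29, given below, were then lost. The gene closest to a member was cfr1, which lies 52 bases from bqt1 on the opposite strand and differed by 0.43 in red1Δ (limma adjusted p = 0.0078) and 0.06 in mug174Δ (limma adjusted p = 0.58). The largest differences in red1Δ were those of pxa1, next to mes1, and jmj2, next to bqt2. The pxa1 gene differed by 0.89 in red1Δ (limma adjusted p = 0.0086), where mes1 itself differed by 0.58, and by 0.56 in mug174Δ (limma adjusted p = 0.060). The jmj2 gene differed by 0.87 in red1Δ and 0.67 in mug174Δ (limma adjusted p = 0.0040 and 0.018). On the other side of bqt2, SPAC1002.07c fell by 0.68 in mug174Δ (limma adjusted p = 0.0061). The neighbours of rec11 and moa1 differed from WT by at most 0.44 in red1Δ (vps29, limma adjusted p = 0.013), where rec11 and moa1 themselves differed by 4.07 and 4.15.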

How the data were processed

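The authors' deposited table gives RPKM per gene: reads divided by feature length and by the total over all features, without further scaling. The paper describes poly(dT) selection, strand-specific libraries, HISAT2 and ASM294v2, whereas the labels name an rRNA depletion kit and the submitters' processing notes STAR 2.5.3a, StringTie 1.3.1c and FastQC 0.11.6. Which aligner and RNA selection lie behind the table is therefore uncertain. No source used here names the read counter or the annotation release, or says whether strand was used. The authors' own fold change and p-value columns were not used.

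RPKM times length gave whole reads for 100% of values (tolerance 0.01 reads), which gave the depths. Log2(RPKM + 0.5) of features with at least 1 RPKM in at least 2 libraries was fitted with 1 mean per strain. The fit was made in limma 3.58.1 under R 4.3.3, using eBayes with trend and 2-sided tests. With 2 libraries against 2 no exact permutation test can reach 0.05. Coordinates are those of the table. The coding segments of all 6 members, and of 5027 of 5143 matched genes, were identical in RefSeq ASM294v3.

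The members, the 5 lists and the tests were chosen with earlier results of these data known. From each list up to 4 genes with the smallest p in either mutant against WT were named, and for each member the 3 most similar genes. Other genes named (ark1, bqt4, cdc13, cfr1, cnp3, jmj2, mei2, mei3, plo1, pxa1, rap1, sad1, SPAC1002.07c, ssl3, ste11, taz1, vps29 and genes listed at 0) were chosen after their values were seen. The listed names hrs1 and hif2 were left out, since these names were taken to belong to products other than those meant. Alternatives were 2 other pseudocounts, 2 other filters, median ratio scaling, no trend, a replicate block, 2-strain fits, voom on the whole reads and each library left out in turn.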

Additional observations from a re-analysis of the deposited data

How the results depend on the processing

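Of the members' log2 differences over all alternatives, 236 kept their direction and their call or lack of a call. Another 30 lost the call, 1 gained it and 3 changed sign. The other filters, no trend, the block, the 2-strain fits and leaving out a library of the strain not compared do not alter the log2 difference. The direction could therefore not change in those alternatives. The sign changes were moa1 in mug174Δ against WT without WT replicate 1 (-0.0543, in a leave-one-out range up to 0.6491), and mes1 in red1Δ against mug174Δ with median ratio scaling (-0.12) and without mug174Δ replicate 1 (-0.0102, in a range up to 0.146). Without a filter on low values, which tests more features, 2 members were called in mug174Δ against WT, and 843 features in all, against 1508. A fit of the 2 strains alone called 2363 features there. In red1Δ against WT median ratio scaling called 2207 features, against 3316. In red1Δ against mug174Δ, 676 features were called without a filter and 511 in the 2-strain fit, against 1153. With voom on the whole reads bqt2 lost its call in mug174Δ against WT (adjusted p = 0.0668), and 1483, 3294 and 1307 features were called in mug174Δ against WT, red1Δ against WT and red1Δ against mug174Δ. The cause of these shifts was not tested. Leaving out 1 library at a time gave 0 to 5 members and 27 to 2356 features in mug174Δ against WT, 6 members and 1577 to 3719 features in red1Δ against WT, and 1 to 5 members and 105 to 2211 features in red1Δ against mug174Δ, where a strain left with 1 library was assumed to vary like the others. The labels do not say whether libraries with the same replicate number were made together. Correlations of replicate deviations were 0.19 for mug174Δ with WT, 0.23 for red1Δ with WT and 0.06 between the mutants, and whether they reflect pairing was not tested. With the replicate block 5 members were called in mug174Δ against WT, 6 in red1Δ against WT and 4 in red1Δ against mug174Δ. In all, 1763, 3480 and 1361 features were called, against 1508, 3316 and 1153 without the block. Depth limits moa1 most, with 4 to 12 reads in mug174Δ and WT.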

Other observations

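Density of the hexamer TNAAAC was also set beside the calls of all other tested protein-coding genes, a description chosen after values were seen and with no test. In red1Δ against WT, 67.2% of the 67 genes with at least 6 hexamers per kb on the coding strand were called higher, against 40.6% of the 1582 genes with fewer than 1 per kb. The shares between were 47.5%, 50.5% and 54.4% in genes with 1 to 2, 2 to 4 and 4 to 6 per kb. On the opposite strand the shares in the same bins ran between 42.7% and 48.0%, with 44.6% in the densest bin and 45.2% in the sparsest. In mug174Δ against WT, 29.9% of the densest genes and 19.1% of the sparsest were called higher on the coding strand. The shares between were 17.9%, 23.3% and 29.4%. On the opposite strand 26.8% of the densest genes (56 genes) and 20.6% of the sparsest were called higher, with 19.6%, 21.5% and 19.9% between. The 6 members are left out of these shares. Base composition and gene length, which set how often the letters occur, were not held fixed.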
